A study of Mus musculus with 447 samples.

Results

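The genes described here are 48 genes of the cell division cycle. They form 2 lists by role, 26 genes read mainly in G2 phase and mitosis (the mitosis genes) and 22 genes read mainly when DNA is copied (the S phase genes). The genes were chosen by symbol, with earlier results of these data known, and all 48 were found among the 40824 genes of the deposited tables. They were measured in 447 single cells of fetal mouse pancreas at E15.5, sorted for GFP into plates and read with Smart-seq3, which covers whole transcripts.

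Every cell came from a pancreas in which NeuroD1, a transcription factor of endocrine cells, was overexpressed from a transgene switched on by tamoxifen in Pdx1-expressing progenitors (Pdx1CreNeurod1OE, below Neurod1OE). In the other genotype the same transgene was combined with loss of Ngn3, the factor that starts endocrine differentiation, through floxed alleles (Pdx1CreNgn3KONeurod1OE, below Ngn3KO). Both genotypes were deposited in a set 2 and a set 3, whose numbers the titles give without a meaning. Neurod1OE had 212 cells, 95 of them in set 3 and the others in set 2, and Ngn3KO had 235 cells, 30 of them in set 3. No animal, litter or plate is named and no cells without the transgene were analysed here, so each genotype in each set is 1 sample, no test between groups was possible, and intervals cover counting error only.

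Cells were placed in a state by 2 hormone and enzyme transcripts, at a limit of 1000 counts per 1000000 reads (CPM). Gcg encodes glucagon, the hormone of alpha cells, and Cpa1 encodes a digestive enzyme of acinar cells that is also read in early pancreatic progenitors. Set 2 was made of 312 Gcg-high cells, all but 6 of its cells in Neurod1OE and all but 4 in Ngn3KO. Set 3 of Neurod1OE held 31 Gcg-high, 15 Cpa1-high and 48 cells with neither, while set 3 of Ngn3KO held 29 Cpa1-high cells and 1 Gcg-high cell. The 4 cells high in both enter only the values over all cells. So do the 4 and 3 cells with neither in set 2 of Neurod1OE and Ngn3KO, apart from the marker counts that follow. Of the 10 genes of the alpha cell list, 9, 9 and 10 were at 50 CPM or more in the 3 larger Gcg-high groups. The list includes Gcg, which defines the state. Cells with neither transcript had 6 of 10 in set 3 of Neurod1OE. Those of set 2 had 8 of 10 in Neurod1OE and 7 of 10 in Ngn3KO, so this count set the states little apart. The Cpa1-high groups were less alike in their sums. The summed acinar list was 31029 CPM in Neurod1OE and 84104 CPM in Ngn3KO. The summed pan-endocrine list was 3236 and 709 CPM and the summed mesenchyme list 6.61 and 880 CPM. In the median cell the acinar list was 30986 and 70800 CPM. There the pan-endocrine list was 178.1 and 180.2 CPM and the mesenchyme list 1.31 and 7.31 CPM. Single cells reached 25596 and 7965 CPM of the pan-endocrine list, and 30.4 and 17743 CPM of the mesenchyme list.

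Total reads per cell ran from 120923 to 2788066 (median 572744) in set 2 of Neurod1OE, from 61805 to 1507050 (median 344128) in set 2 of Ngn3KO, from 25769 to 2468483 (median 695079) in set 3 of Neurod1OE and from 84422 to 1564011 (median 728074) in set 3 of Ngn3KO. The genotypes also differed in sex, read from Xist and Y-linked genes: set 2 held 64 female, 48 male and 5 uncalled cells in Neurod1OE, and in Ngn3KO 0 male and 10 uncalled cells with all others female, and set 3 held 27 female and 64 male against 0 female and 30 male. The predicted gene Gm12338 was at 10 CPM or more in 43.6% and 52.7% of the cells of set 2 and in 74.7% and 0% of those of set 3 (Neurod1OE, then Ngn3KO). The part of depth, sex and Gm12338 in the genotype ratios below was not tested. Summed reads of Neurod1 gave 332 and 292 CPM for Neurod1OE and Ngn3KO of set 2, and 217 and 30.4 CPM for set 3. In Ngn3KO of set 3, 366 of the 670 Neurod1 reads came from its 1 Gcg-high cell. Cpa1-high cells of set 3 gave 37.8 CPM of Neurod1 in Neurod1OE and 14.3 CPM in Ngn3KO. Summed reads of Neurog3, the targeted gene, gave 3.89 and 3.06 CPM, then 17.8 and 3.72 CPM. The labels used here do not say which part of it is floxed, so reads outside that part would check nothing. No cell name was shared between the tables, and no cell repeated the counts of another.

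As background, the S phase genes are switched on late in G1 by E2F factors, once cyclin-dependent kinases have released them from the retinoblastoma protein. The mitosis genes are held silent by the DREAM complex at short promoter elements called cell cycle genes homology regions (CHR), and are activated later through MuvB, B-MYB and FOXM1, often next to CCAAT boxes bound by NF-Y. In the fetal pancreas, progenitors and acinar cells divide, and endocrine differentiation driven by Ngn3 is accompanied by exit from the cycle.

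The division between the lists could be read in the promoters. RefSeq promoters (GRCm38.p6, 250 bases before to 50 after the start) were matched for 40 of the 48 genes and gave 41 promoters. A CHR (TTTGAA or TTCGAA, both strands) was present in 16 of 21 mitosis promoters (76.2%), in 4 of 20 S phase promoters (20%) and in 19.2% of all 32851 promoters. An E2F site (TTCCCGC or TTCGCGC or TTGCCGC or TTGGCGC, both strands; on opposite strands these can overlap) was present in 3 mitosis promoters (14.3%), in 15 S phase promoters (75%) and in 9.57% of all. CCAAT was present in 80.95%, 65% and 37.4%. In 14 mitosis promoters a CHR stood without an E2F site and in 12 S phase promoters an E2F site stood without a CHR. With only the 150 bases before the start, the CHR share of the mitosis promoters was 33.3% (9.70% of all) and the E2F share of the S phase promoters was 40% (5.47% of all). In 7 mitosis promoters a CHR only reached past the start, with none wholly before it, and in 4 S phase promoters the same held for E2F sites. A match is a description of letters, not of binding.

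The promoters below are shown because they hold the 2 motifs before the start, outside annotated exons. Each stretch is 120 bases, 5′ to 3′ on the gene's strand, from RefSeq in GRCm38.p6. The Cdc20 and Cdk1 stretches end 9 and 26 bases short of the start, and the others end at it. In the first 3 the capitals mark the CHR, which began 18 bases before the start in Cdc20 (chr4:118437353-118437472, minus strand), 71 in Cdk1 (chr10:69352939-69353058, minus strand) and 120 and 23 in Top2a (chr11:99024190-99024309, minus strand). In the other 3 the capitals mark the E2F sites, in Mcm6 (chr1:128359706-128359825, minus strand) as 2 places where both strands match with overlap, in E2f8 (chr7:48881597-48881716, minus strand) and in Rrm1 (chr7:102441575-102441694, plus strand). Motifs of the other kind were left in lower case. The Cdk1 stretch also holds an E2F match (ttcgcgc), and the E2f8 stretch also holds a CHR on the other strand (ttcaaa).
Cdc20: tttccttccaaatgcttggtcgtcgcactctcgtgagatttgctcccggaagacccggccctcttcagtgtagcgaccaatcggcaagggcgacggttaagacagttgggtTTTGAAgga
Cdk1: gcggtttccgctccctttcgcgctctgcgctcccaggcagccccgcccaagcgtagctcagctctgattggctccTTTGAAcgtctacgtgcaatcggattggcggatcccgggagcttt
Top2a: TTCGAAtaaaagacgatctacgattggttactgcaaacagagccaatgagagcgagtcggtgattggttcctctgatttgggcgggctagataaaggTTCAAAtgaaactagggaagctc
Mcm6: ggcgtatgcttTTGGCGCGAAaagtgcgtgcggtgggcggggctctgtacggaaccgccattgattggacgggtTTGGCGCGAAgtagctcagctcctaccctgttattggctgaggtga
E2f8: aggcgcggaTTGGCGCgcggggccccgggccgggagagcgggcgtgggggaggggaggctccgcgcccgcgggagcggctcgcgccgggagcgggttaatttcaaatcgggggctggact
Rrm1: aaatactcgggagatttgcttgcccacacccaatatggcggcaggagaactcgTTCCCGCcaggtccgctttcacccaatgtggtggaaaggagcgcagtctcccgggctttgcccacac

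Most cells read few of the mitosis genes, and a minority read nearly all of them. Of 447 cells, 306 had 0 to 2 of the 26 mitosis genes at 10 CPM or more, 62 had at least 13 (called mitosis-high below), and 19 had all 26. Only 15 cells lay near that limit, at 11 to 14 genes. The S phase genes were spread more evenly: 78 cells had at least 11 of 22 (called S-high), 35 lay near that limit at 9 to 12 genes, and 11 had all 22. These classes are ranges of a count, not cell types.

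**Figure D1:**
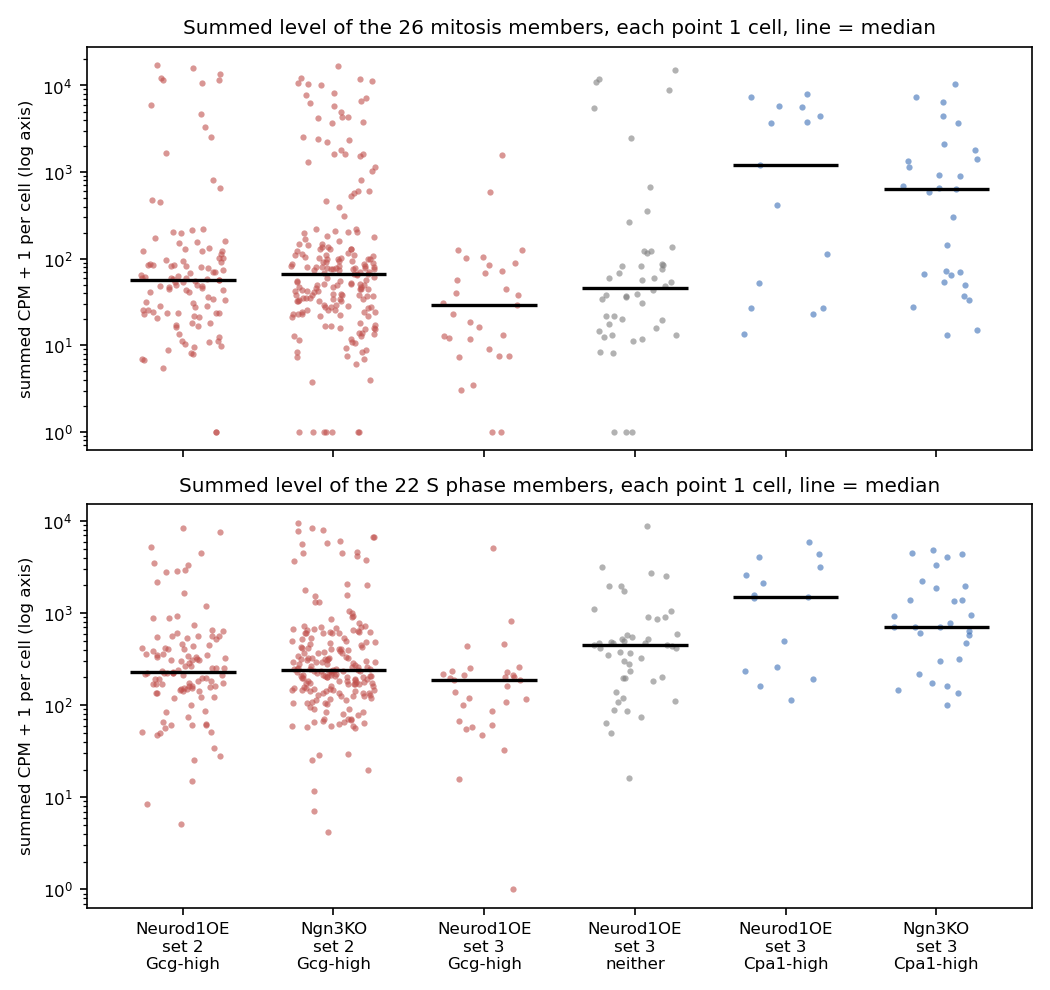
Summed CPM + 1 of the mitosis genes (top) and S phase genes (bottom) in each cell, on a log axis, by genotype, set and state; each point is a cell and the line is the median. Gcg-high cells of set 2 had low medians with a long upper tail, and Cpa1-high cells had the highest medians.

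The share of mitosis-high cells was largest in Cpa1-high cells and smallest in Gcg-high cells of set 3 of Neurod1OE. In Cpa1-high cells 7 of 15 in Neurod1OE (46.7%, exact 95% Clopper-Pearson interval 21.3 to 73.4%) and 9 of 29 in Ngn3KO (31.03%, 15.3 to 50.8%) were mitosis-high. The Gcg-high cells of set 2 held 11 such cells (9.91%, 5.05 to 17.04%) in Neurod1OE and 27 (13.4%, 9.04 to 18.9%) in Ngn3KO. Cells of Neurod1OE set 3 with neither transcript held 6 of 48 (12.5%, 4.73 to 25.2%). Its Gcg-high cells held 0 of 31, with an exact interval up to 11.2% (a limit of 3 counts gives 9.68%). The intervals of the 2 genotypes overlapped in both sets. After every cell was thinned to 165298 reads, which left out shallower cells, the shares in the same order were 53.3%, 26.9%, 10.8%, 13.5%, 13.6% and 0 of 26 cells.

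The S-high shares had a similar order, with 9 of 15 (60%, 32.3 to 83.7%) and 17 of 29 (58.6%, 38.9 to 76.5%) of the Cpa1-high cells of Neurod1OE and Ngn3KO. In Gcg-high cells of set 2 they were 16 cells (14.4%, 8.47 to 22.4%) and 23 cells (11.4%, 7.39 to 16.7%). Neither cells held 8 of 48 (16.7%), and Gcg-high cells of Neurod1OE set 3 held 1 of 31 (3.23%). That 1 cell had 67797 reads and was left out on thinning, where 0 of 26 remained. It read 21 S phase and 12 mitosis genes at 10 CPM or more. Within Cpa1-high cells of Neurod1OE, 6 of 8 female cells (75%, 34.9 to 96.8%) and 1 of 6 male cells (16.7%) were mitosis-high, while every Cpa1-high cell of Ngn3KO was male. Apart from those 6 male cells, sex and genotype cannot be told apart among Cpa1-high cells.

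**Figure D2:**
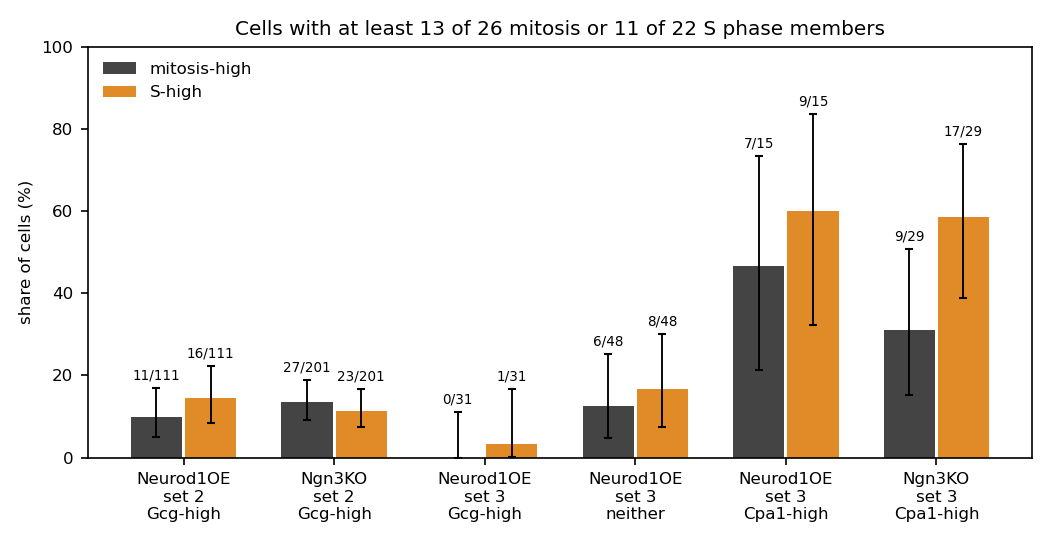
Share of mitosis-high and S-high cells in percent for each genotype, set and state, with exact 95% intervals and the number of cells. The Cpa1-high bars are the tallest, between 31.03% and 60%, and the intervals of the genotypes overlap within each state.

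The lists were high together in some cells and apart in others. All 7 mitosis-high Cpa1-high cells of Neurod1OE and 8 of 9 of Ngn3KO were also S-high. In Gcg-high cells of set 2 this held for 8 of 11 in Neurod1OE and 16 of 27 in Ngn3KO, and for 2 of 6 in the cells with neither. Cells that were S-high without being mitosis-high numbered 8 and 7 in Gcg-high cells of set 2, 6 in cells with neither, and 2 and 9 in Cpa1-high cells of Neurod1OE and Ngn3KO. The 6 mitosis-high cells with neither were mixed: the highest marker list was duct or trunk in 2, pan-endocrine in 2, alpha in 1 and neural or Schwann in 1. The 1 Gcg-high cell of Ngn3KO set 3 read 20 of 26 mitosis and 9 of 22 S phase genes at 10 CPM or more.

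**Figure D3:**
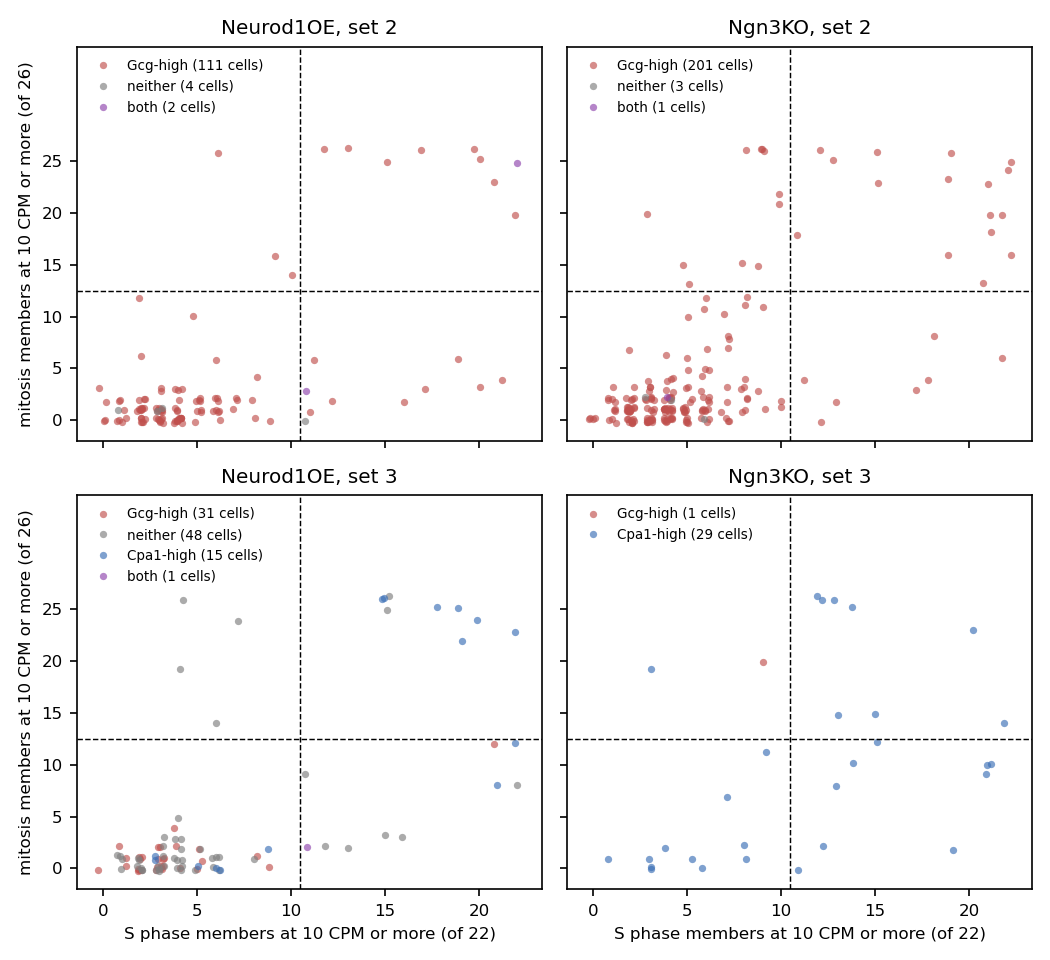
Number of S phase genes (of 22) against number of mitosis genes (of 26) at 10 CPM or more in each cell, in 4 panels by genotype and set, coloured by state, with small random shifts; dashed lines lie just below the limits of 11 and 13 genes. Most cells sit at 0 to 2 mitosis genes, and the cells above both limits include Gcg-high and Cpa1-high cells.

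Because few cells carry the reads, sums over a group follow those cells. In Gcg-high cells of set 2, the mitosis-high cells held 14.3% of all reads and 94.9% of the mitosis gene reads in Neurod1OE, and 15.01% and 90.1% in Ngn3KO. They held 54.7% and 60.5% of the S phase gene reads. Their share of the mitosis gene reads is partly set in advance, because the class is defined by these same genes. The 5 cells with the most mitosis reads gave 69.9% of them in Neurod1OE and 39.6% in Ngn3KO. The summed mitosis level per mitosis-high cell was 1669 CPM at the lowest, 11607 at the median and 17094 at the highest in Neurod1OE, against 467, 4875 and 16838 CPM in Ngn3KO. The ranges overlapped, and the median total of these cells was 575142 and 349290 reads.

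Most drivers of entry into mitosis stood highest in the Cpa1-high cells of Neurod1OE. Summed reads of Cdk1, the mitotic kinase, gave 318 CPM there, 132.6 CPM in Cpa1-high cells of Ngn3KO, 107.3 and 65.6 CPM in Gcg-high cells of set 2 of Neurod1OE and Ngn3KO, 89.4 CPM in cells with neither and 1.34 CPM in Gcg-high cells of Neurod1OE set 3. Its median over cells was 160.7 CPM (lowest 0, highest 797) in the first of these groups, 8.53 CPM (0 to 638) in the second and 0 CPM in the other 4. Ccnb1, a B-type cyclin that activates Cdk1, gave 222, 108.7, 108.3, 61.9, 81.4 and 0.627 CPM in that order. Ccna2, the A-type cyclin, gave 117.3 CPM in Cpa1-high cells of Neurod1OE and 4.57 CPM in its Gcg-high cells of set 3. Ccnb2, the other B-type cyclin, lay between 76.4 and 86.3 CPM in 5 of the groups and at 4.97 CPM in those Gcg-high cells. Cdc25c, a phosphatase that activates Cdk1, gave 35.4 and 0.851 CPM in those groups. Cdkn3, a phosphatase that acts on cyclin-dependent kinases, departed from that order: it gave 26.4 and 26.1 CPM in Gcg-high cells of set 2 and 9.57 and 17.2 CPM in Cpa1-high cells of Neurod1OE and Ngn3KO.

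Mki67, the proliferation marker that coats mitotic chromosomes, gave 203.7 CPM in Cpa1-high cells of Neurod1OE and 158.9 CPM in those of Ngn3KO. It gave 105.6 and 97.3 CPM in Gcg-high cells of set 2, 113.1 CPM in cells with neither and 4.84 CPM in Gcg-high cells of Neurod1OE set 3. Top2a, the topoisomerase that untangles sister chromatids, gave 367, 229.8, 194.1, 113.9, 103.3 and 8.20 CPM. In Gcg-high cells of set 2, Mki67 was at 10 CPM or more in 16.2% of cells in Neurod1OE and 24.9% in Ngn3KO. Cpa1-high cells had it in 60% and 62.1%.

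The spindle and kinetochore genes had the same lowest group. The levels given for cells with neither transcript came mostly from their 6 mitosis-high cells, which held 94.5% of the mitosis gene reads. Aurkb, the kinase of the chromosome passenger complex, gave 121.8, 51.2, 34.1, 14.9, 33.1 and 0.358 CPM in the same order of groups, and its partner Birc5 (survivin) gave 209, 149.8, 80.6, 61.5, 72.7 and 1.03 CPM. Aurka, a centrosome kinase, was the mitosis gene with the highest level left in Gcg-high cells of Neurod1OE set 3, at 8.87 CPM against 60.5 CPM in cells with neither. Its activator Tpx2 stood at 1.16 and 67.8 CPM and Plk1, the polo-like kinase, at 1.43 and 41.7 CPM. The motors and spindle proteins Cenpe, Kif23, Kif2c, Knstrn, Nusap1 and Aspm lay between 22.9 and 73.8 CPM in cells with neither and between 0.269 and 2.24 CPM in those Gcg-high cells. Cenpf, a kinetochore protein, stood at 95.5 and 0.493 CPM. The checkpoint kinases Bub1 and Bub1b stood at 21.7 and 28.9 CPM against 0.582 and 0.269 CPM. Prr11 stood at 24.4 and 0.0896 CPM. Pif1, a DNA helicase, stood at 7.89 CPM in cells with neither and had no read in 31 cells, which makes it at least 58.7-fold higher with a floor of 3 reads over the group.

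The exit genes were among the highest per kb of annotated exon. That length merges the exons of all isoforms of a gene, so it is not the length of a transcript. Ube2c, the ubiquitin-conjugating enzyme of the anaphase-promoting complex, gave 213 CPM per kb in Cpa1-high cells of Neurod1OE, above its activator Cdc20 at 82.8 CPM per kb. In Gcg-high cells of set 2 of Neurod1OE, Ccnb2 was at 53.8, Ube2c at 46.9, Pcna at 35.8 and Cdc20 at 32.9 CPM per kb. Ube2c shares 22.8% of its exon length with Tnnc2 on the other strand, and the labels do not say whether strand was used in counting, so part of its reads may belong to Tnnc2.

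**Figure D4:**
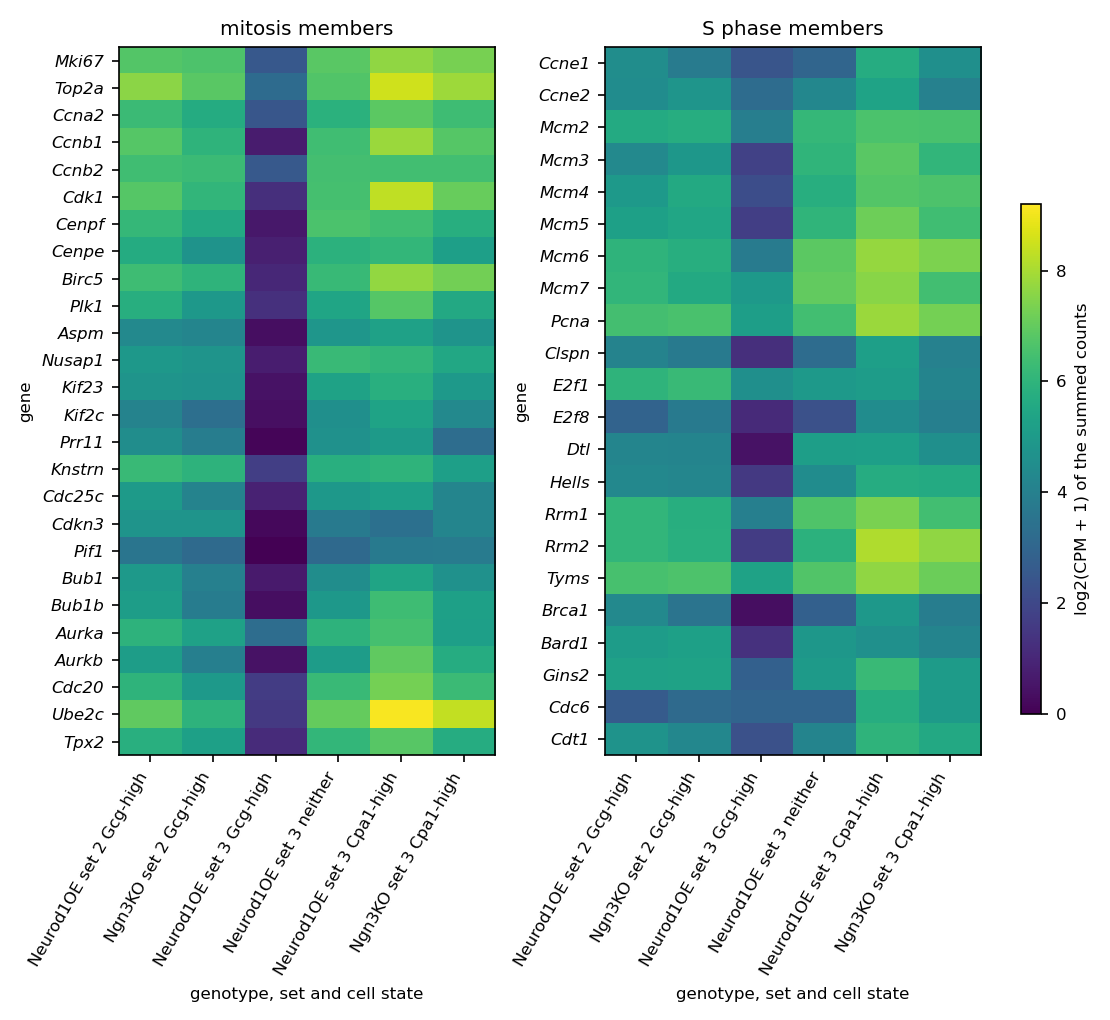
log2(CPM + 1) of the summed reads of each of the 48 genes (rows, mitosis and S phase genes apart) in 6 groups of cells (columns, by genotype, set and state). Dark colours are low values. The column of Gcg-high cells of Neurod1OE set 3 is the darkest for every mitosis gene, while E2f1, Mcm7, Pcna and Tyms keep values above 20 CPM there.

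The S phase genes were less confined to a few cells. Pcna, the sliding clamp of the DNA polymerases, gave 227 and 153.7 CPM in Cpa1-high cells of Neurod1OE and Ngn3KO, 86.01 and 93.8 CPM in Gcg-high cells of set 2, 83.8 CPM in cells with neither and 34.7 CPM in Gcg-high cells of Neurod1OE set 3. Its median over cells was 22.2 CPM (0 to 1123) and 20.2 CPM (0 to 1288) in the Gcg-high cells of set 2. E2f1, the activating E2F factor, ran the other way from most members between the sets. It gave 62.2 and 74.2 CPM in Gcg-high cells of set 2 but 32.6 and 16.9 CPM in Cpa1-high cells of set 3. Within set 3 of Neurod1OE, E2f1 was higher in Cpa1-high than in Gcg-high cells (log2 ratio 0.47), the direction of the other S phase genes. Set and state cannot be told apart in the values between sets, and the cell-to-cell ranges of E2f1 overlapped in all 4 of those groups. E2f8, a repressing E2F factor, gave 6.70 and 12.8 CPM and 21.2 and 14.7 CPM in those groups.

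The licensing factors Cdc6 and Cdt1, which load the helicase, gave 52.5 and 62.7 CPM in Cpa1-high cells of Neurod1OE. Cdc6 stood at 5.22 to 8.13 CPM in the Gcg-high groups and in cells with neither. The helicase subunits Mcm2, Mcm3, Mcm4, Mcm5, Mcm6 and Mcm7 gave 95.3 to 216 CPM in Cpa1-high cells of Neurod1OE and 2.28 to 29.7 CPM in its Gcg-high cells of set 3, and Gins2, a helicase cofactor, gave 73.7 and 6.05 CPM. The nucleotide enzymes Rrm1, Rrm2 and Tyms gave 161.3, 276 and 204.2 CPM against 14.7, 2.11 and 38.1 CPM. The cyclins Ccne1 and Ccne2, which start S phase, gave 50.8 and 39.4 CPM against 4.43 and 8.60 CPM. The checkpoint and repair genes Clspn, Brca1 and Bard1 gave 35.4, 29.04 and 23.7 CPM against 1.39, 0.269 and 1.48 CPM. Dtl, which targets Cdt1 for degradation, and the chromatin remodeller Hells gave 35.9 and 51.4 CPM against 0.358 and 1.88 CPM.

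In cells with few mitosis genes the S phase genes differed in how often they were read. Among 216 Gcg-high cells of set 2 with at most 2 mitosis genes at 10 CPM, 84 of them Neurod1OE, Pcna was at 10 CPM or more in 59.5% and 56.8%, E2f1 in 52.4% and 59.1%, Mcm7 in 46.4% and 40.2%, and Tyms in 38.1% and 37.1%. In the same cells Clspn was there in 1.19% and 0.758%, E2f8 in 2.38% and 0%, Dtl in 2.38% and 3.03%, Rrm2 in 2.38% and 3.79%, and Cdc6 in 4.76% and 0%. Pcna and E2f1 were thus read in most of these cells, while Rrm2, Clspn and Dtl were read in few.

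Within mitosis-high cells the members were not equally present. Mki67 was at 10 CPM or more in all 11 such Gcg-high cells of Neurod1OE set 2 and in 96.3% of the 27 of Ngn3KO, but Pif1 was in 45.5% and 37.04% and Prr11 in 63.6% and 55.6%. The 6 such cells with neither transcript read fewer S phase genes at the median, 6.5 (4 to 15) against 15 (6 to 22) and 13 (3 to 22) in the Gcg-high cells of set 2, with overlapping ranges. Named after their values were seen, Rrm2 was in 33.3% of the 6 against 90.9% and 85.2%, and Ccne1 (36.4% and 48.1%), Ccne2 (54.5% and 55.6%), Cdt1 (54.5% and 44.4%) and Cdc6 (9.09% and 33.3%) in 0 of 6. Tyms was in all 6, and Rrm1 and Mcm7 in 83.3% of them, as against 85.2% or more in the Gcg-high cells.

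Across Gcg-high cells of set 2, thinned to 1 depth, levels of the mitosis genes followed each other more closely than those of the S phase genes. The median Spearman coefficient over pairs was 0.49 in Neurod1OE (every cell deep enough to thin) and 0.50 in Ngn3KO (30 shallower cells left out) for 325 mitosis pairs, 0.34 and 0.37 for 231 S phase pairs, and 0.26 and 0.30 for 572 mixed pairs. These cells hold many zeros and their library batches are not named, so the coefficients are a description. The lists were also chosen with earlier results of these data known, and the part of that choice was not tested. Kif23 and Cdkn3 had the closest pair in Neurod1OE (0.77), and Kif23 and Kif2c reached 0.75 in Ngn3KO. Clspn and E2f8 had 0.75 in Ngn3KO. Pcna and E2f1 had medians with the mitosis genes of only 0.16 and 0.18 in Neurod1OE.

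Loss of Ngn3 was first compared within set 2. In Gcg-high cells the ratio of Ngn3KO to Neurod1OE, log2 of CPM + 1, was below 0 for all 26 mitosis genes, with a median of −0.66, while the median of all genes tested was −0.06. Of the 26, Bub1b (−1.24) and Aurkb (−1.15) were at least 2-fold lower and none was 2-fold higher. Among all 9986 genes tested, 1.44% were 2-fold lower and 0.921% higher. Ube2c (−0.996) and Cdc20 (−0.994) lay just short of that limit, and Cdkn3 (−0.02), Kif23 (−0.06), Ccnb2 (−0.11) and Mki67 (−0.12) were nearest 0. The 22 S phase genes had a median of 0.07 and none was past 2-fold in either direction. All 26 mitosis genes passed the filter for levels (10 CPM and reads in 10% of cells in a group).

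This difference rested on few cells. With each cell given the same weight, the mitosis median was −0.22 and 0 of 26 genes passed 2-fold. The ratio was then above 0 for 8 of them, among them Kif23 (0.45), Mki67 (0.43) and Aspm (0.42). Leaving out each gene's top cell gave −0.45, and leaving out the 2% of cells with most reads gave −0.19. Per mitosis-high cell, Ube2c ran from 0 to 2316 CPM (median 847) in Neurod1OE and from 0 to 1532 CPM (median 157.5) in Ngn3KO, and Bub1b from 3.73 to 474 CPM (median 209) and from 0 to 283 CPM (median 50.995). Mki67 had medians of 561 and 498 CPM. The ranges overlapped for each. Gm12338-positive cells gave a mitosis median of −0.55 and Gm12338-negative cells −0.84, and female cells alone −0.59. For the S phase genes these subsets gave −0.38, 0.71 and 0.80, so the sign differed between them. With a Gcg limit of 5000 CPM in place of 1000, the mitosis median was −1.23 with 20 genes past 2-fold.

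**Figure D5:**
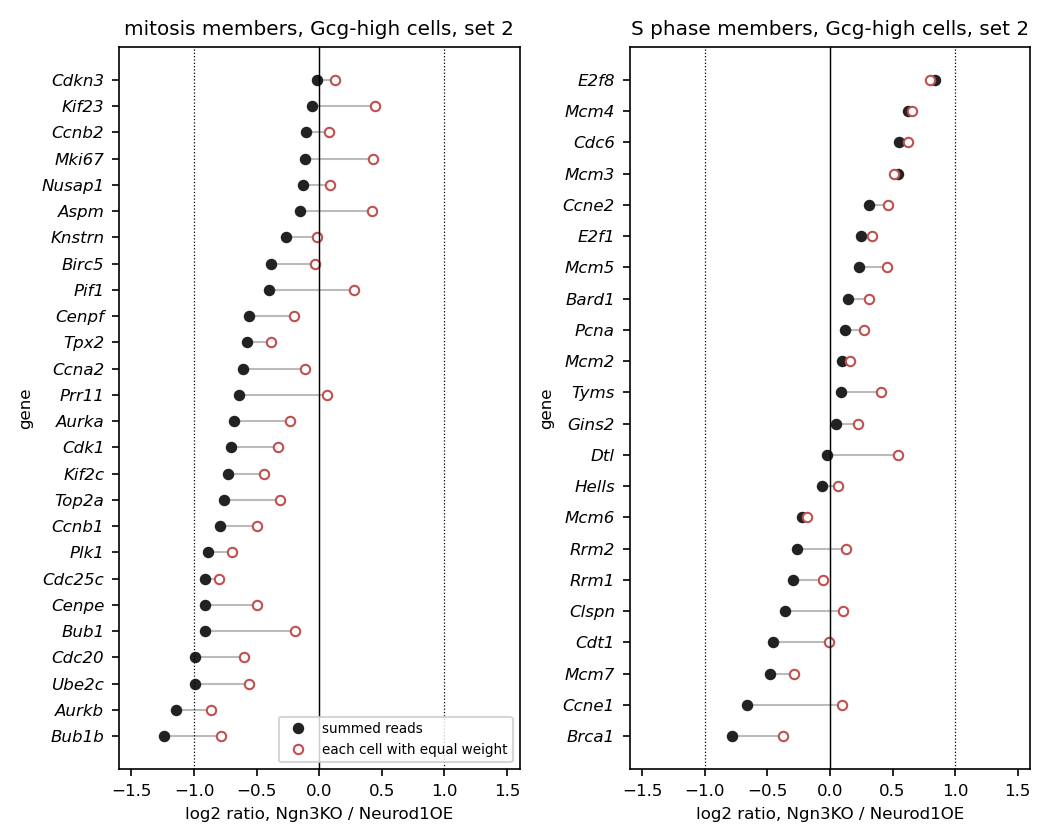
log2 ratio of Ngn3KO to Neurod1OE for each of the 48 genes in Gcg-high cells of set 2, from summed reads (black) and with equal weight for each cell (open red). All 26 mitosis genes lie below 0 with summed reads, while 8 of them lie above 0 with equal weight; dotted lines mark 2-fold.

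Over all cells of set 2 the mitosis median was −0.65, with Bub1b (−1.30), Aurkb (−1.19), Cdc20 (−1.11) and Ube2c (−1.05) 2-fold lower (4 of 26) and 25 of 26 below 0. The share of all genes 2-fold lower was 1.67%, and that 2-fold higher was 0.859%. The S phase median was −0.05, with 0 of 22 past 2-fold. One Neurod1OE cell high in both Gcg and Cpa1, with 2788066 reads, read 25 mitosis and 22 S phase genes and is in these sums.

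In set 3 the genotypes differ in the states they hold. Over all cells the mitosis median was 0.30, with Cdkn3 (1.32) higher and Prr11 (−1.03) lower, and the S phase median was 0.37, with Rrm2 (1.08) and Hells (1.02) higher. Of all genes 5.96% were 2-fold higher and 31.8% lower, and the median of all genes was −0.57. Scaling by TMM, which centres most genes, gave 10 mitosis and 9 S phase genes past 2-fold.

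Within Cpa1-high cells the ratios had the opposite sign. The mitosis median was −0.82, with 24 of 26 below 0 and 10 of 26 2-fold lower, and the S phase median was −0.67, with 22 of 22 below 0 and 6 of 22 2-fold lower. Of all genes 17.97% were 2-fold lower and 4.37% higher, and their median was −0.34, so many genes were lower with them. The sums rested on few cells: 5 of 15 cells gave 88.4% of the mitosis gene reads in Neurod1OE, and 5 of 29 gave 79.5% in Ngn3KO. With each cell given the same weight, the mitosis and S phase medians were −0.85 and −0.54, with 7 and 4 genes 2-fold lower. Prr11 (−1.74), Aurka (−1.30), Cdk1 (−1.25), Aurkb (−1.24) and Plk1 (−1.20) were lowest among the mitosis genes, and Ccne2 (−1.31), Gins2 (−1.18), Mcm7 (−1.16) and Clspn (−1.12) among the S phase genes. Cdkn3 was the exception at 0.79. With TMM scaling the medians were −0.53 and −0.38, with 3 and 1 genes past 2-fold. The summed acinar, pan-endocrine and mesenchyme lists, sex and Gm12338 (14 of 15 positive against 0 of 29) moved with this comparison. Their part in the result was not tested. Gins2 shares 67.3% of its exon length with Gse1 on the other strand and is uncertain.

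The states of Neurod1OE set 3 were compared next. Gcg-high cells were lower than cells with neither in all 26 mitosis genes by at least 2-fold, from Cenpf (−6.01) to Aurka (−2.64), with a median of −4.51 (−4.55 with Pif1 at its bound), against 19.2% of all genes 2-fold lower and 12.3% higher. These ratios rested on few cells with neither transcript: 5 of the 48 gave 90.9% of their mitosis gene reads, and the 6 mitosis-high ones, of mixed marker lists, gave 94.5%. The median cell had a summed mitosis level of 44.7 CPM with neither transcript and 28.2 CPM among Gcg-high cells. Of the 22 S phase genes 19 were 2-fold lower (median −2.21). E2f1 (−0.36), Ccne1 (−0.56) and Cdc6 (0.01) were not, and Ccne2 (−1.005) lay at the limit. Equal weight for each cell gave 1.27 for Clspn and 1.61 for E2f8 in place of −1.99 and −1.20, since 1 shallow cell of 67797 reads carried both.

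Cpa1-high cells were higher than cells with neither in 10 of 26 mitosis genes and 12 of 22 S phase genes, with medians of 0.74 and 1.11, where 10.8% of all genes were 2-fold higher and 26.1% lower and the median of all genes was −0.32. Ube2c (2.097), Aurkb (1.85), Top2a (1.82) and Cdk1 (1.82) led the mitosis genes, and Cdc6 (2.78), Ccne1 (2.70), Rrm2 (2.19) and E2f8 (2.19) led the S phase genes. Set against Gcg-high cells, they were higher in 26 of 26 mitosis genes (median 5.29) and 21 of 22 S phase genes (median 3.40), with E2f1 (0.47) the exception. Of all genes 19.3% were 2-fold higher and 25.98% lower. The 3 state comparisons share cells with each other.

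Other genes of the same machinery were counted from lists by role. For all genes tested, the shares 2-fold lower and higher were 1.44% and 0.921% in Gcg-high cells of set 2, and 17.97% and 4.37% in Cpa1-high cells. Of 43 other mitosis genes 8 were 2-fold lower in Ngn3KO in Gcg-high cells of set 2 (median −0.49), led by the motor Kif20a (−1.27) and the kinetochore gene Ndc80 (−1.21), and none was higher. In Cpa1-high cells 19 of 43 were lower (median −0.95), led by Mybl2 (−2.22), which encodes B-MYB, and Kif4 (−2.02). Of 36 other replication genes 0 and 12 were lower in the 2 comparisons, with medians of −0.17 and −0.85. Of 17 genes of G1 cyclins, kinases, pocket proteins and Myc factors, 0 passed 2-fold in set 2 (median −0.13), and 2 were higher and 3 lower in Cpa1-high cells (median −0.46), where 3 of 17 is near the share of all genes.

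Inhibitors of the cycle were counted in the same way. Of 16 inhibitor and exit genes, Ccng2 (−1.38) was 2-fold lower in Gcg-high cells of set 2, where the list median was −0.17. In Cpa1-high cells 2 of 16 were higher and 1 lower (median 0.00), with Cdkn1c, which encodes p57, at 1.66. For all genes tested, 1.44% were 2-fold lower in Gcg-high cells of set 2, and 4.37% higher and 17.97% lower in Cpa1-high cells. Cdkn1a, which encodes p21, stood at 167.3 and 154.4 CPM in Gcg-high cells of set 2, 128.6 CPM in those of Neurod1OE set 3, 348 CPM in cells with neither and 739 and 777 CPM in Cpa1-high cells. Within Gcg-high cells of set 2, its median was 186.2 CPM in mitosis-high and 51.7 CPM in other cells of Neurod1OE, and 216 and 36.5 CPM in Ngn3KO. In Cpa1-high cells the order differed between genotypes, with medians of 203.9 CPM in mitosis-high and 1148 CPM in other cells of Neurod1OE, and 802 and 646 CPM in Ngn3KO. The ranges overlapped in each of these 4 comparisons. The median of Gcg itself was 34591 CPM in mitosis-high and 76072 CPM in other cells of Neurod1OE, and 55728 and 87070 CPM in Ngn3KO. In Cpa1-high cells the median of Cpa1 was 2418 against 8203 CPM in Neurod1OE and 5110 against 13018 CPM in Ngn3KO. The ranges of Gcg and of Cpa1 overlapped in each genotype, and both genes also define the states.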

How the data were processed

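Single cells were read by Smart-seq3, and the values used are the raw counts deposited by the authors, whole reads for each gene in each cell. Per the submitters' processing notes, HISAT2 2.1.0, Trimmomatic 0.39 and featureCounts 2.0.0 were used with mm10; strand and annotation are not given in the sources used here. The 92 ERCC rows were left out, every cell passed a minimum of 1000 genes, and no doublet caller was run.

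Counts were summed per genotype, set and state and divided by summed totals (CPM). Ratios are log2((CPM + 1)/(CPM + 1)) of sums; a gene was tested at 10 CPM and reads in 10% of cells of 1 group. Intervals are exact Poisson or Clopper-Pearson. With 1 sample a group no p-value was computed. The ratio step was tested on simulated data. Scaling factors came from edgeR 4.0.16 and DESeq2 1.42.0 in R 4.3.3; the rest used Python 3.11.15, numpy 2.4.6, scipy 1.17.1, pandas 2.3.3 and matplotlib 3.10.9. Beyond the members, genes were named by the largest ratios in their list; genes compared inside mitosis-high cells were chosen after their values were seen. Members and lists were chosen with earlier results of these data known.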

Additional observations from a re-analysis of the deposited data

How the results depend on the processing

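Of 358 alternatives, 307 left the value near its main one and 51 moved it; medians and counts here are over members that passed the filter. The sign of a median changed under 7, all for S phase medians of set 2 near 0. Over all cells (−0.16) it was 0.16 with equal cell weight, 0.06 without each gene's top cell, 0.16 after leaving out the 2% of cells with most reads, 0.29 in Gm12338-negative and 0.38 in female cells. In Gcg-high cells (0.01) it was −0.21 with limits of 5000 CPM and −0.38 in Gm12338-positive cells. Counts are of genes past 2-fold, mitosis then S phase. Main counts were 4 and 0 over all cells of set 2, 2 and 0 in its Gcg-high cells, 2 and 2 over all cells of set 3, and 10 and 6 in its Cpa1-high cells. TMM and DESeq2 scaling each gave 10 and 9 over all cells of set 3, and 3 and 1 in Cpa1-high cells. Equal weight for each cell gave 0 mitosis genes in both set 2 comparisons and 4 and 6 over all cells of set 3; it moved the medians of Gcg-high against neither cells from −4.54 to −3.55 (mitosis) and from −2.69 to −1.50 (S phase), and of Cpa1-high against Gcg-high cells from 5.30 to 4.47 and from 3.40 to 2.39. Leaving out the 2% of cells with the highest totals gave 0 mitosis genes in both set 2 comparisons and 4 and 5 over all cells of set 3, and leaving out each gene's top cell gave 1 mitosis gene in Gcg-high cells of set 2 and 1 over all cells of set 3.

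Gm12338-positive cells gave 1 and 4 over all cells of set 2 and 4 S phase genes in its Gcg-high cells. Gm12338-negative cells gave 12 and 3, and 8 and 6 in Gcg-high cells, with an S phase median of 0.71. Female cells gave 1 S phase gene over all cells of set 2, and 5 and 6 in Gcg-high cells with an S phase median of 0.80. Male cells gave 10 and 7 over all cells of set 3, and a mitosis-high share of 16.7% in Cpa1-high cells of Neurod1OE. A pseudocount of 0.1 CPM gave 4 mitosis genes in Gcg-high cells of set 2 and mitosis medians of −5.80 and 6.46 for Gcg-high against neither and Cpa1-high against Gcg-high cells. State limits of 200 CPM gave 7 mitosis genes in set 2 and medians of −2.08 and 2.71; limits of 5000 CPM gave 20 and 1 in Gcg-high cells of set 2. Without cells below the thinning depth, an alternative chosen after seeing the data, 4 mitosis genes passed in Gcg-high cells of set 2. Calling cells high at 9 mitosis or 8 S phase genes gave an S-high share of 22.4% in Gcg-high cells of Ngn3KO set 2 and a mitosis-high share of 51.7% in Cpa1-high cells of Ngn3KO. Thinning gave an S-high share of 0% in Gcg-high cells of Neurod1OE set 3. The 150-base window gave 33.3% for CHR in mitosis and 40% for E2F in S phase promoters. The cause of these shifts was not tested. Alternatives that left fewer than 10 cells in a group gave no value. No paired analysis was possible because the replicate numbers in the titles name single cells and the results come from no test.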
